A study of Mus musculus with 12 samples.

Results

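The genes described here are 10 components of the protein-folding machinery of the endoplasmic reticulum (ER): the chaperones Hspa5, Hsp90b1, Calr and Canx, the disulfide isomerases Pdia3, Pdia4 and Pdia6, the co-chaperone Dnajb9, the degradation factor Herpud1 and the transcription factor Xbp1. Members were taken as every probe set that the annotation of the Affymetrix Mouse430_2 array pairs with 1 of these genes alone, which gave 24 of the 45037 probe sets tested and 10 of 18193 genes. The RNA source was B16-OVA, a line of mouse melanoma cells that carries the model antigen ovalbumin. The cells had received 100 nM GDC-0623, a small molecule inhibitor of the kinase MEK (MEKi), or only its solvent DMSO. The 4 groups of 3 arrays were GDC-0623 at 72 h, DMSO at 72 h, GDC-0623 at 24 h and DMSO at 24 h, so 12 arrays of 1 cell line in all. The series text calls the 3 samples of a group biological replicates and does not say whether each was grown on its own. The p-values therefore speak only of how far these samples scatter, which may be technical. Equal amounts of RNA were labelled, and in such bulk samples a message present in fewer cells and one present at a lower level per cell cannot be told apart.

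Proteins that enter the secretory pathway fold inside the ER, where Hsp70 and Hsp90 family chaperones hold unfolded chains, lectin chaperones bind their sugar trees and disulfide isomerases join their cysteines. When unfolded chains accumulate, the unfolded protein response is started by 3 membrane sensors, IRE1, ATF6 and PERK. IRE1 splices Xbp1 mRNA into the form that encodes an active transcription factor, cleaved ATF6 enters the nucleus and raises chaperone genes, and PERK slows translation and favours the transcription factor ATF4. The arrays read the amount of each mRNA, not the splicing of Xbp1 or the cleavage of ATF6.

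The proximal promoters of this family are known for carrying the ER stress response element (ERSE), in which CCAAT and CCACG stand 9 bases apart, or its shorter relative ERSE-II, in which ATTGG and CCACG stand 1 base apart. Both are read by ATF6 or XBP1 together with NF-Y. All 10 genes had an entry in RefSeq promoter windows of 300 bases (250 before and 50 after the start, build GRCm38.p6), which were searched on both strands for these letters and for the unfolded protein response element TGACGTGG. ERSE lay in the windows of 5 genes, Hspa5, Hsp90b1 (at 2 places), Calr, Canx and Pdia6, and in 0.119% of all 32851 windows. ERSE-II lay in that of Herpud1 alone among the 10, and in 0.0365% of all windows. TGACGTGG lay in no window of the 10 and in 0.676% of all. No match overlapped another, and the windows of Pdia3, Pdia4, Dnajb9 and Xbp1 held no match. The elements were defined on genes of this family, so finding them there is background and no result of the arrays. The sequences are shown because they split the 10 genes by a feature that the expression values did not choose. They end before the start site, and positions count back from it. The 250 bases before the start are given for Hspa5, the best-known ERSE gene, and for Herpud1, whose mRNA went a different way from the rest at 72 h. For the others the match is given with 20 bases on either side. Capitals mark the fixed letters of the element, and on Calr and at the second place in Hsp90b1 they read on the opposite strand.
Hspa5 (chr2:34771840-34772089, plus strand, -250 to -1): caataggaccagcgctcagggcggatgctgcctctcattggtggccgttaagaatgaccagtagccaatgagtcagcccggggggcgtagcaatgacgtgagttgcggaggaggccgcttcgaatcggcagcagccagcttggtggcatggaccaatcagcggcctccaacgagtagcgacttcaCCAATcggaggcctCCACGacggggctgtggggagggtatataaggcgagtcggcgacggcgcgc
Herpud1 (chr8:94386179-94386428, plus strand, -250 to -1): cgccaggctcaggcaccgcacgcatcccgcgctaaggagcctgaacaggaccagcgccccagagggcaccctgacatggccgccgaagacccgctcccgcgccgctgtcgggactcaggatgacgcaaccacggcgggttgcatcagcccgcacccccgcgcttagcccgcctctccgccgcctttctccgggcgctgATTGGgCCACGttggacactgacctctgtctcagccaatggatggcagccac
Hsp90b1 (chr10:86705513-86705676, minus strand, -232 to -69): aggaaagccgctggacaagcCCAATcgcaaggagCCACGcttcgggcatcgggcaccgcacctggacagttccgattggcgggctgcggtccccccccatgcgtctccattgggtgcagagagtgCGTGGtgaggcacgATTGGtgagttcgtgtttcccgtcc
Calr (chr8:84847055-84847113, minus strand, -182 to -124): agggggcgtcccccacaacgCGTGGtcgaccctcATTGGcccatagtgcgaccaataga
Canx (chr11:50325780-50325838, minus strand, -165 to -107): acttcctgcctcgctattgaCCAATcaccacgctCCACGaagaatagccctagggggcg
Pdia6 (chr12:17266471-17266529, plus strand, -118 to -60): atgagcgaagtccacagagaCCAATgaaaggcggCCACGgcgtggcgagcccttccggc

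Values are log2 signals after robust multichip averaging (RMA), so a difference of 1 is a change by a factor of 2. Differences are given with the moderated standard error of limma, and a probe set was called where the Benjamini-Hochberg adjusted p over all 45037 probe sets was under 0.05. A gene is represented by its probe set with the highest mean over the 12 arrays, and 9 of the 10 genes had several. Levels of different probe sets cannot be set against each other, since each binds its own message with its own strength. Of the 24 probe sets, 23 had a mean above 5.363, the median probe set mean, and 14 had a mean above 12.

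The 7 melanocyte markers examined (Tyr, Tyrp1, Dct, Pmel, Mlana, Mitf and Sox10) had means of 12.2 to 14.3, while 6 of 8 epithelial, 4 of 5 measured immune, 4 of 6 fibroblast and 4 of 5 endothelial markers lay below the median probe set. The 6 genes driven by ERK that served to check the inhibitor were Dusp6, Spry4, Etv5, Etv4, Egr1 and Ccnd1. With GDC-0623, 4 of them were called lower at 72 h and all 6 at 24 h. Etv5 fell by 1.29 at 72 h and by 4.06 at 24 h. Between 24 h and 72 h in DMSO, 5 of these 6 fell and Egr1 rose. Mean Etv5 went from 8.94 to 5.35 in DMSO and from 4.88 to 4.06 in GDC-0623. The DMSO baseline of these genes thus differed between the times, and its part in the drug differences was not tested. Array medians lay between 5.36 and 5.42 at 72 h and between 5.31 and 5.34 at 24 h. The 3' minus 5' signal of the spiked Dap control, a measure of how completely the labelled RNA copies run, averaged 1.42 ± 0.04 at 72 h and 2.06 ± 0.08 at 24 h (SD, n = 6 each), so it moved with time. Its part in the changes over time was not tested.

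With GDC-0623, most probe sets of the ER folding genes lay slightly above DMSO at both times, and few of the differences passed the test. Dnajb9 rose at both times and Herpud1 fell at 72 h. At 72 h 22 of the 24 probe sets were above 0 and 2 below, with a median log2 difference of 0.15, against 0.01 over all probe sets. That shift rested largely on 1 array: without DMSO 72 h replicate 3, 20 were above 0 and 4 below, and the median was 0.05, against 0.02 over all. At 24 h 22 were above 0, 1 was below and 1 was at 0, with a median of 0.14 (0.10 to 0.18 without single arrays), against 0.01 over all. Probe sets of 1 gene read the same message, so their counts are not counts of independent events. In all, 20 of the 24 were above 0 at both times, as were 30.4% of all probe sets, and no array is shared between these 2 comparisons. Calls were few: 1 probe set rose and 2 fell at 72 h, where 2.99% of all probe sets rose and 4.25% fell, and 1 rose at 24 h, where 3.83% of all rose and 4.61% fell. Counted as genes, 1 of 10 rose and 1 fell at 72 h (4.03% and 5.14% of all genes) and 1 rose at 24 h (5.01% of all rose and 5.86% fell), so the counts of members called in these pairwise fits lay near the background. The 3 arrays with GDC-0623 lay wholly above the 3 with DMSO for 7 probe sets and wholly below for 2 at 72 h, as they did for 12.3% and 12.3% of all probe sets. At 24 h they lay wholly above for 9 and below for none, against 13.3% and 14.8% of all. At an unadjusted p under 0.05, 8 probe sets were higher and 2 lower at 72 h (9.67% and 10.5% of all), and 9 were higher and none lower at 24 h (10.9% and 12.4% of all). The counts varied with the fit: a joint fit of the 12 arrays called 7 of the 24 at 72 h, 5 higher and 2 lower (11.9% of all in either direction), and none at 24 h (7.44% of all), and a trended and robust prior called 8 at 24 h, all higher (14.7% of all in either direction).

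**Figure D1:**
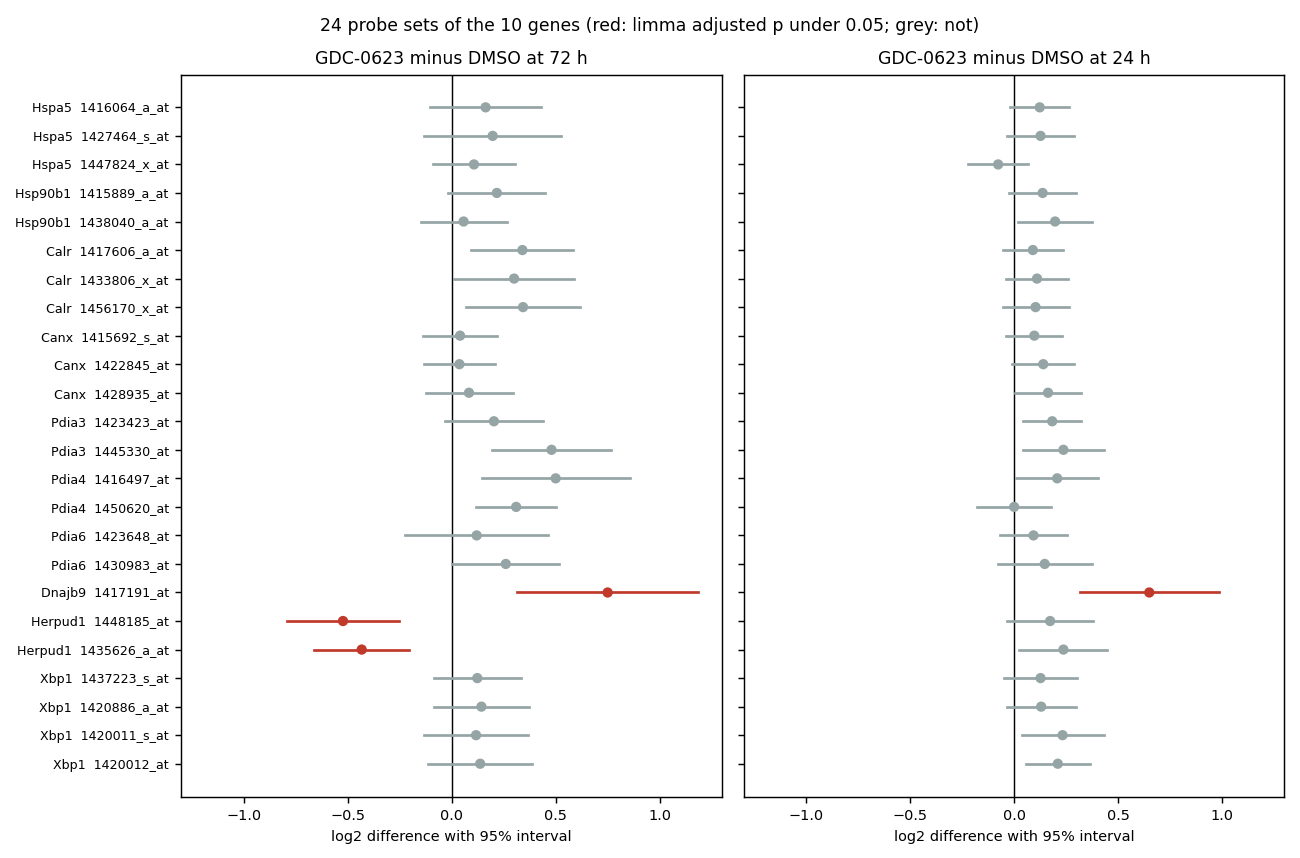
Log2 difference, GDC-0623 minus DMSO, for the 24 probe sets of the 10 genes (rows) at 72 h (left) and 24 h (right), with points for the difference, lines for the 95% interval and red for a limma adjusted p under 0.05. Dnajb9 lies right of 0 in both panels, both Herpud1 probe sets lie left of 0 at 72 h only, and most other points sit between 0 and 0.5.

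Dnajb9, which encodes ERdj4, a DnaJ co-chaperone of the Hspa5 protein and a well-known XBP1 target, was the member that rose with GDC-0623 at both times. At 72 h its arrays read 9.47, 10.02 and 9.19 with GDC-0623, against 8.83, 9.05 and 8.55 with DMSO. At 24 h they read 9.75, 10.03 and 9.37 with GDC-0623, against 9.10, 9.11 and 8.99 with DMSO. No GDC-0623 array overlapped a DMSO array of its time, and replicate 3 was the lowest in each group. The difference was 0.75 ± 0.20 at 72 h (1.68-fold, adjusted p = 0.0484) and 0.65 ± 0.15 at 24 h (1.57-fold, adjusted p = 0.0318). Both calls stood near the threshold. At 72 h the adjusted p was 0.114 to 0.141 without GDC-0623 replicate 1 or 2 or DMSO replicate 1 or 3 (differences of 0.52 to 0.80), and at 24 h it was 0.0778 to 0.109 without GDC-0623 replicate 1 or 2 or any 1 DMSO replicate (0.49 to 0.67). The call at 72 h was also lost after centring on array medians (0.72, adjusted p = 0.0581) and with the trended and robust prior (adjusted p = 0.0688), and that at 24 h in the joint fit (adjusted p = 0.0611). The 2 differences did not pass a test against each other (0.10 ± 0.28, 95% interval -0.49 to 0.69), and no change over time passed in GDC-0623 (-0.16 ± 0.21) or DMSO (-0.26 ± 0.12; adjusted p = 0.157, and 0.0342 without DMSO 72 h replicate 2).

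Herpud1 encodes Herp, a ubiquitin-like membrane protein that gathers the components of ER-associated degradation, and its gene answers to ATF4 as well as to ATF6. It was the member that changed most, and it did so with time. Its brightest probe set, 1448185_at, read 10.88, 11.12 and 11.38 with GDC-0623 at 72 h, against 11.61, 11.69 and 11.65 with DMSO. At 24 h it read 10.72, 10.82 and 10.49 with GDC-0623, against 10.54, 10.45 and 10.52 with DMSO. The level was thus higher at 72 h than at 24 h on every array of either treatment, and the 3 DMSO arrays at 72 h stood above all others. Over time it rose by 0.45 ± 0.13 in GDC-0623 (1.37-fold, adjusted p = 0.0323) and by 1.15 ± 0.07 in DMSO (2.2-fold, adjusted p = 5.32e-05). The call in GDC-0623 was lost without GDC-0623 72 h replicate 2 or 3 or 24 h replicate 1 or 3 (adjusted p of 0.0683 to 0.111). That call was also lost with the replicate number as a block (adjusted p = 0.0549) and after centring on array medians (0.38, adjusted p = 0.0563). With GDC-0623 the level of 1448185_at fell at 72 h, by 0.52 ± 0.12 (adjusted p = 0.0287), and at 24 h the difference was 0.17 ± 0.09 (adjusted p = 0.298).

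The second Herpud1 probe set, 1435626_a_at, read 10.69, 10.88 and 11.06 with GDC-0623 at 72 h, against 11.36, 11.27 and 11.30 with DMSO. The values at 24 h were 10.38, 10.42 and 10.09 with GDC-0623, against 10.09, 10.02 and 10.07 with DMSO. Again the groups did not overlap at 72 h, with GDC-0623 lower. It fell by 0.43 ± 0.10 at 72 h (adjusted p = 0.0334), differed by 0.24 ± 0.09 at 24 h (adjusted p = 0.165, and 0.0184 with 0.34 ± 0.06 without GDC-0623 replicate 3), and rose over time by 0.58 ± 0.12 in GDC-0623 (adjusted p = 0.00592) and by 1.25 ± 0.07 in DMSO (adjusted p = 4.29e-05). The GDC-0623 effect at 72 h was below that at 24 h by a tested difference of -0.70 ± 0.16 for 1448185_at (adjusted p = 0.0311) and -0.67 ± 0.14 for 1435626_a_at (adjusted p = 0.0225). These were the only 2 of the 24 probe sets called in that test, both lower, where 1.36% of all probe sets were called higher and 1.66% lower, and Herpud1 was the 1 gene of 10 (1.97% of all genes higher and 2.1% lower). Both probe sets read the same message and are not separate evidence. The call at 72 h was lost for 1448185_at without any 1 array but GDC-0623 replicate 3 (adjusted p up to 0.102) and for 1435626_a_at likewise (up to 0.117), with differences of -0.34 to -0.54. The call of the tested difference was lost for 1448185_at without 9 of the 12 arrays (all but GDC-0623 replicate 3 of either time and DMSO 72 h replicate 2) with adjusted p up to 0.0862, and for 1435626_a_at without DMSO 72 h replicate 1, DMSO 24 h replicate 2 or 3, GDC-0623 72 h replicate 2 or GDC-0623 24 h replicate 1 or 2 with adjusted p up to 0.0668.

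**Figure D2:**
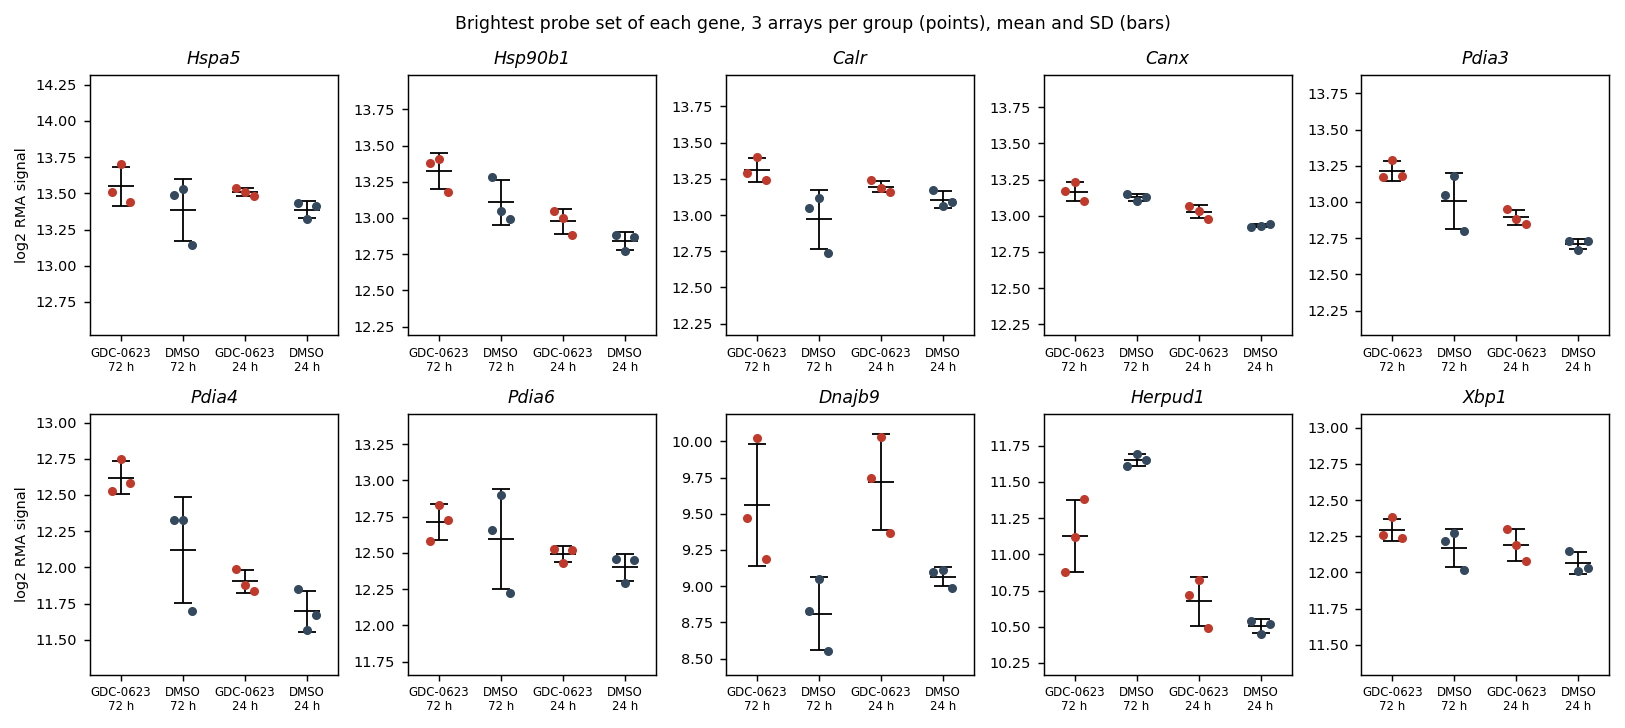
Log2 RMA signal of the brightest probe set of each of the 10 genes in the 12 arrays, with points for arrays, bars for the mean and SD of 3 arrays, and panels of the same height on the log2 scale (GDC-0623 red, DMSO blue). Herpud1 stands highest in the 3 DMSO arrays at 72 h, Dnajb9 is higher with GDC-0623 at both times, and the remaining genes differ by less between GDC-0623 and DMSO.

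Hspa5 encodes BiP (GRP78), the Hsp70 chaperone of the ER lumen that also holds the 3 sensors inactive, and its mRNA is the usual readout of the response. Its brightest probe set, 1416064_a_at, read 13.51, 13.70 and 13.44 with GDC-0623 at 72 h, against 13.49, 13.53 and 13.14 with DMSO. At 24 h the arrays read 13.54, 13.51 and 13.48 with GDC-0623, against 13.43, 13.32 and 13.41 with DMSO. The groups overlapped at 72 h and did not at 24 h. The difference was 0.16 ± 0.12 at 72 h (adjusted p = 0.513) and 0.12 ± 0.06 at 24 h (adjusted p = 0.281), and the 95% intervals, -0.10 to 0.43 and -0.02 to 0.27, leave out a change by a factor of 2. Without DMSO 72 h replicate 3 the difference at 72 h was 0.04 ± 0.10 (adjusted p = 0.873), and without GDC-0623 72 h replicate 2 it was 0.09 ± 0.13. At 24 h the trended and robust prior called Hspa5 higher (adjusted p = 0.0269). Over time it differed by 0.04 ± 0.09 in GDC-0623 and 0.00 ± 0.11 in DMSO. Of its other probe sets, 1447824_x_at rose over time in GDC-0623 (0.32 ± 0.08, adjusted p = 0.0123, and 0.0506 without GDC-0623 24 h replicate 2), while 1427464_s_at differed by 0.22 ± 0.11 in GDC-0623 (adjusted p = 0.178, and 0.0176 without GDC-0623 72 h replicate 3) and by 0.15 ± 0.12 in DMSO (adjusted p = 0.406, and 0.0318 without DMSO 72 h replicate 3). The drug differences of 1427464_s_at were 0.20 ± 0.15 at 72 h and 0.13 ± 0.07 at 24 h, with no call. Those of 1447824_x_at were 0.11 ± 0.09 at 72 h and -0.08 ± 0.06 at 24 h, also with no call. The latter was the only member probe set below DMSO at 24 h, so the Hspa5 probe sets differed in sign there.

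Hsp90b1 encodes GRP94, the ER member of the Hsp90 family. Its probe set 1415889_a_at read 13.38, 13.41 and 13.18 with GDC-0623 at 72 h, against 13.28, 13.05 and 12.99 with DMSO. The 24 h arrays gave 13.05, 13.00 and 12.88 with GDC-0623, against 12.88, 12.77 and 12.87 with DMSO. In this probe set GDC-0623 arrays thus touched the DMSO range at both times, and arrays at 72 h lay above those at 24 h of the same treatment. The drug difference was 0.22 ± 0.10 at 72 h (adjusted p = 0.287) and 0.14 ± 0.07 at 24 h (adjusted p = 0.294). Over time it rose in GDC-0623 by 0.35 ± 0.09 (adjusted p = 0.0183, and 0.0612 to 0.0651 without GDC-0623 72 h replicate 1 or 2 or 24 h replicate 3) and differed by 0.27 ± 0.09 in DMSO (adjusted p = 0.0625, and 0.0423 without DMSO 72 h replicate 3). The second probe set, 1438040_a_at, rose over time in both, by 0.31 ± 0.08 in GDC-0623 (adjusted p = 0.021, and 0.0661 to 0.0732 without GDC-0623 24 h replicate 2 or 3 or 72 h replicate 2) and by 0.45 ± 0.09 in DMSO (adjusted p = 0.00583). Its drug difference was 0.06 ± 0.09 at 72 h (adjusted p = 0.808), where the groups overlapped. At 24 h its GDC-0623 arrays lay wholly above DMSO, by 0.20 ± 0.08 (adjusted p = 0.166, and 0.024 with the trended and robust prior). After centring on array medians, the calls over time in GDC-0623 were lost for 1415889_a_at (adjusted p = 0.0522) and 1438040_a_at (adjusted p = 0.057).

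Calr and Canx encode calreticulin and calnexin, the soluble and the membrane-bound lectin chaperone of glycoprotein folding, and calreticulin also takes part in loading peptides on MHC class I. Calr probe set 1417606_a_at read 13.29, 13.40 and 13.24 with GDC-0623 at 72 h, against 13.05, 13.12 and 12.74 with DMSO. Those groups did not overlap, nor did they for the other 2 Calr probe sets. The 3 differences at 72 h were 0.34 ± 0.11, 0.30 ± 0.13 and 0.34 ± 0.12, with adjusted p of 0.103, 0.227 and 0.140, so none passed. The brightest passed in the joint fit (adjusted p = 0.027) and with the trended and robust prior (adjusted p = 0.0338). At 24 h they were 0.09 to 0.11, and over time 0.04 to 0.11 in GDC-0623 and -0.12 to -0.20 in DMSO, with no call. DMSO 72 h replicate 3 had the lowest value of its group for each, and without it the brightest probe set differed by 0.23 ± 0.09 at 72 h (adjusted p = 0.209).

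The brightest Canx probe set, 1415692_s_at, read 13.17, 13.23 and 13.10 with GDC-0623 at 72 h, against 13.15, 13.10 and 13.13 with DMSO. At 24 h it read 13.07, 13.03 and 12.98 with GDC-0623, against 12.92, 12.93 and 12.94 with DMSO. The drug differences were small, 0.04 ± 0.08 at 72 h and 0.10 ± 0.06 at 24 h. At 24 h all 3 Canx probe sets lay wholly above DMSO (0.10, 0.14 and 0.16), with no call. The trended and robust prior called 1422845_at (adjusted p = 0.0454). Over time the brightest differed by 0.14 ± 0.07 in GDC-0623 (adjusted p = 0.201) and 0.20 ± 0.07 in DMSO (adjusted p = 0.0583, and 0.0325 in the joint fit). The other Canx probe sets went opposite ways over time: 1422845_at rose by 0.33 ± 0.07 in GDC-0623 (adjusted p = 0.00905) and 0.43 ± 0.07 in DMSO (adjusted p = 0.0025), while 1428935_at fell by 0.54 ± 0.08 in GDC-0623 (adjusted p = 0.00103) and 0.46 ± 0.09 in DMSO (adjusted p = 0.00528). Canx was the 1 gene of the 10 with calls in both directions, so no single direction over time can be given for it.

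The disulfide isomerases form and rearrange disulfide bonds. Pdia4 (ERp72) read 12.53, 12.75 and 12.58 in 1416497_at with GDC-0623 at 72 h, against 12.33, 12.33 and 11.70 with DMSO. The values at 24 h were 11.99, 11.88 and 11.84 with GDC-0623, against 11.85, 11.57 and 11.67 with DMSO. The groups did not overlap at 72 h, where DMSO replicate 3 stood well below the other 2. Pdia4 rose over time in GDC-0623 by 0.72 ± 0.09 (1.64-fold, adjusted p = 0.000313) under every alternative, and differed in DMSO by 0.42 ± 0.17 (adjusted p = 0.0956, and 0.00419 with 0.63 ± 0.10 without DMSO 72 h replicate 3). The drug differences were 0.50 ± 0.16 at 72 h (adjusted p = 0.0987) and 0.21 ± 0.09 at 24 h (adjusted p = 0.19). Without DMSO 72 h replicate 3 the difference at 72 h was 0.29 ± 0.10 (adjusted p = 0.133). The joint fit called it at 72 h (adjusted p = 0.0343) and the trended and robust prior at 24 h (adjusted p = 0.0458). Its second probe set, 1450620_at, has a mean of 4.25, below the median probe set, and rose over time in GDC-0623 by 0.36 ± 0.09 (adjusted p = 0.0131, and 0.0526 without GDC-0623 24 h replicate 2). Its difference at 72 h, 0.31 ± 0.09 (adjusted p = 0.0592), passed in the joint fit (adjusted p = 0.0206).

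Pdia3 (ERp57), which works with both lectin chaperones and in the class I peptide-loading complex, read 13.17, 13.29 and 13.18 in 1423423_at with GDC-0623 at 72 h, against 13.05, 13.18 and 12.80 with DMSO. At 24 h the arrays read 12.95, 12.88 and 12.85 with GDC-0623, against 12.73, 12.67 and 12.73 with DMSO. The groups overlapped at 72 h and did not at 24 h, with differences of 0.20 ± 0.11 at 72 h (adjusted p = 0.332) and 0.18 ± 0.06 at 24 h (adjusted p = 0.11). Without DMSO 72 h replicate 3 the value at 72 h was 0.10 ± 0.09. At 24 h it passed among brighter probe sets (adjusted p = 0.0324) and with the trended and robust prior (adjusted p = 0.00359). It rose over time in GDC-0623 by 0.32 ± 0.08 (adjusted p = 0.012) and differed by 0.30 ± 0.10 in DMSO (adjusted p = 0.0575, and 0.00917 without DMSO 72 h replicate 3). The dimmer probe set 1445330_at read 7.73, 7.92 and 7.67 with GDC-0623 at 72 h, against 7.42, 7.45 and 7.01 with DMSO. Its difference of 0.48 ± 0.13 missed the threshold (adjusted p = 0.051), passed without DMSO replicate 2 (adjusted p = 0.0478), in the joint fit (adjusted p = 0.0143) and under 5 further alternatives, and was 0.34 ± 0.10 without DMSO replicate 3 (adjusted p = 0.0977). Over time it differed by -0.06 ± 0.09 in GDC-0623 and -0.30 ± 0.13 in DMSO (adjusted p = 0.118).

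Pdia6 (P5), which also limits IRE1 and PERK signalling, read 12.58, 12.83 and 12.73 in 1423648_at with GDC-0623 at 72 h, against 12.66, 12.90 and 12.22 with DMSO. The 24 h arrays gave 12.53, 12.43 and 12.52 with GDC-0623, against 12.46, 12.29 and 12.45 with DMSO. The groups overlapped at both times. The drug differences were 0.12 ± 0.16 at 72 h, turning to -0.07 ± 0.11 without DMSO 72 h replicate 3, and 0.09 ± 0.07 at 24 h. No change over time passed (0.22 ± 0.09 in GDC-0623, adjusted p = 0.089, and 0.0478 without GDC-0623 72 h replicate 1, and 0.19 ± 0.15 in DMSO, adjusted p = 0.402, and 0.0331 without DMSO 72 h replicate 3). The dimmer 1430983_at fell over time instead, by 0.54 ± 0.10 in GDC-0623 (adjusted p = 0.0027) and by 0.65 ± 0.12 in DMSO (adjusted p = 0.00433).

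Xbp1, the transcription factor of the IRE1 arm, had 4 probe sets, and none was called between GDC-0623 and DMSO in the pairwise fits. The brightest, 1437223_s_at, read 12.26, 12.38 and 12.24 with GDC-0623 at 72 h, against 12.22, 12.27 and 12.02 with DMSO. At 24 h it read 12.30, 12.19 and 12.08 with GDC-0623, against 12.15, 12.01 and 12.03 with DMSO. These ranges overlapped at both times. The 4 probe sets differed by 0.12 to 0.14 at 72 h (adjusted p of 0.505 to 0.639) and by 0.13 to 0.23 at 24 h (adjusted p of 0.0987 to 0.383). Without DMSO 72 h replicate 3 the brightest differed by 0.05 ± 0.09 at 72 h. At 24 h 1420012_at passed among brighter probe sets (adjusted p = 0.0332) and, with 1420011_s_at, under the trended and robust prior (adjusted p of 0.0497 and 0.0371). Over time only 1420012_at was called, higher by 0.30 ± 0.09 in GDC-0623 (adjusted p = 0.0321) and by 0.37 ± 0.10 in DMSO (adjusted p = 0.0241). Its call was lost without any 1 array except GDC-0623 72 h replicate 3 in GDC-0623 (adjusted p up to 0.104), and without DMSO 24 h replicate 2 or 3 or DMSO 72 h replicate 1 or 2 in DMSO (up to 0.0863). Centring on array medians also lost it in GDC-0623 (adjusted p = 0.093) and in DMSO (adjusted p = 0.0516). The replicate number as a block lost it in GDC-0623 (adjusted p = 0.0506). Without DMSO 72 h replicate 3, 1420011_s_at also passed in DMSO (0.29, adjusted p = 0.0484).

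Between 24 h and 72 h, calls on the folding genes were more numerous than between drug and solvent, as they were over the whole array. In GDC-0623, 10 of the 24 probe sets rose and 2 fell, where 11.3% of all probe sets rose and 13.9% fell, and 4 of the 10 genes rose (Hsp90b1, Pdia3, Pdia4 and Herpud1), where 13.5% of all genes rose and 16% fell. In DMSO, 5 probe sets rose and 2 fell (11.3% and 14.3% of all), and Herpud1 alone of the 10 genes rose (14.2% of all genes rose and 16.9% fell). The median over the 24 probe sets was 0.18 in GDC-0623 and 0.15 in DMSO, against 0.04 over all probe sets in both. The GDC-0623 arrays at 72 h and 24 h and the DMSO arrays at the same times also enter the drug comparisons, so these sets of differences are not independent of one another.

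The DMSO count changed when 1 array was left out, and it also varied with the fit. DMSO 72 h replicate 3 had the lowest value of its group for 8 of the 10 genes and 20 of the 24 probe sets, and for 34.9% of all genes, with a median gap of -0.33 to the other 2 arrays. Other arrays were lowest for as many genes but by less: GDC-0623 24 h replicate 3 for 9 of the 10 genes (35.2% of all genes) with a median gap of -0.083, and DMSO 24 h replicate 2 for 8 (33% of all) with a gap of -0.08. Without DMSO 72 h replicate 3, 13 probe sets were called over time in DMSO (11 higher and 2 lower), and 5 genes, Hsp90b1, Pdia3, Pdia4, Pdia6 and Herpud1, all higher. With all 12 arrays kept, the joint fit and array weights each called 11 probe sets and 5 genes, with Canx in place of Pdia6. Without that array no member was called between GDC-0623 and DMSO at 72 h. The shares of all probe sets and genes called under this omission are not given here, so these counts stand without their background. DMSO 72 h replicate 3 also had the highest value of its group for all 9 genes of the PERK and ATF4 arm named further on, and for 36.7% of all genes. GDC-0623 72 h replicate 3 was also the highest of its group for those 9 (40.2% of all genes), while 6 of the 10 folding genes were lowest in it. In the ERK check it read 9.87 for Egr1, against 5.91 and 6.47 in replicates 1 and 2 and 10.30 to 10.91 in DMSO. It was also the highest of its group, by less, for Spry4, Etv5 and Etv4. Its values there were 3.91 (against 3.52 and 3.87), 4.18 (against 4.06 and 3.93) and 5.70 (against 5.40 and 5.66). It was not highest for Dusp6 or Ccnd1. GDC-0623 24 h replicate 3 was highest of its group for Dusp6, Spry4, Etv5 (6.08, against 4.35 and 4.22) and Ccnd1, but not for Etv4 or Egr1. The part of these arrays in the results was tested only by leaving them out.

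**Figure D3:**
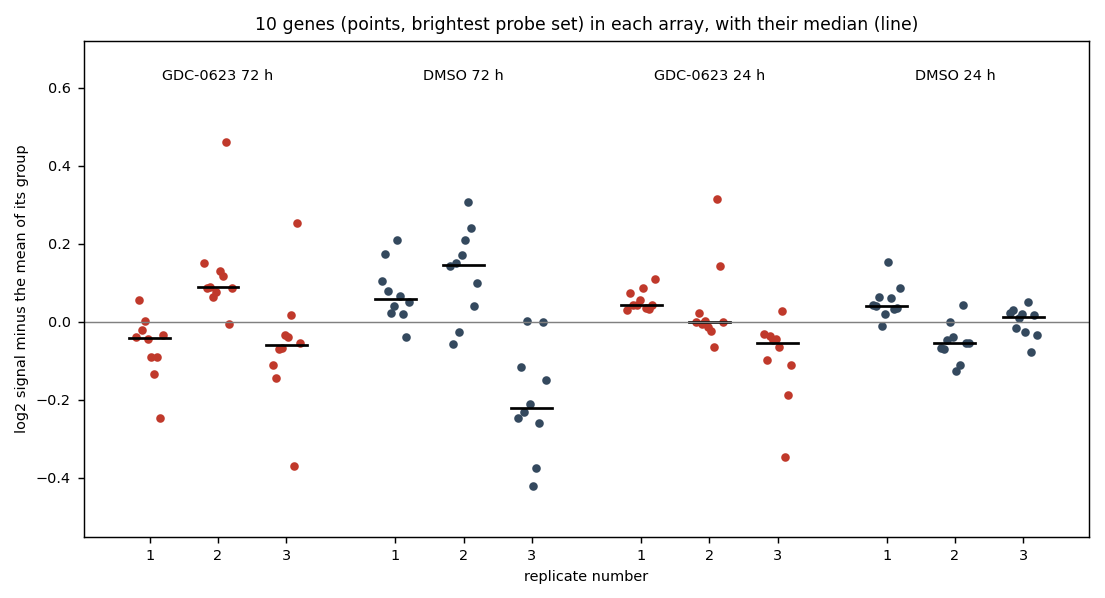
Log2 signal of the 10 genes minus the mean of their group (points, brightest probe set) in each of the 12 arrays, with a line at the median of the 10. DMSO 72 h replicate 3 has no gene clearly above 0 and a median near -0.2, while the arrays at 24 h lie closer to 0.

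Among the neighbours of these genes in the same pathways, the list named the PERK and ATF4 arm had larger changes than the folding genes. Its changes came with time. The arrays do not read PERK activity, and what raised the genes of that list was not tested. All 9 genes of the PERK and ATF4 arm (Atf4, Ddit3, Ppp1r15a, Trib3, Atf3, Chac1, Asns, Sesn2 and Nupr1) rose between 24 h and 72 h in GDC-0623 and in DMSO, under each of the 13 alternatives run for that list, with a median of 1.72 in GDC-0623 and 2.08 in DMSO, against 0.04 over all genes in both. Trib3, a pseudokinase gene induced by ATF4 and CHOP, read 10.44, 10.64 and 11.60 with GDC-0623 at 72 h, against 7.89, 7.79 and 7.50 with GDC-0623 at 24 h. With DMSO it read 11.62, 11.05 and 12.17 at 72 h, against 8.31, 7.97 and 8.00 at 24 h. The rise was 3.17 ± 0.25 in GDC-0623 and 3.52 ± 0.24 in DMSO. Nupr1, which encodes a stress-induced chromatin protein, rose by 2.78 ± 0.20 in GDC-0623 and 3.86 ± 0.26 in DMSO. Chac1, a glutathione-degrading enzyme, rose by 2.03 ± 0.25 in GDC-0623 and 2.29 ± 0.16 in DMSO. Ddit3 (CHOP) rose by 1.497 ± 0.18 in GDC-0623 and 2.14 ± 0.22 in DMSO, and Atf4 itself by 0.69 ± 0.13 in GDC-0623 and 0.88 ± 0.08 in DMSO.

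**Figure D4:**
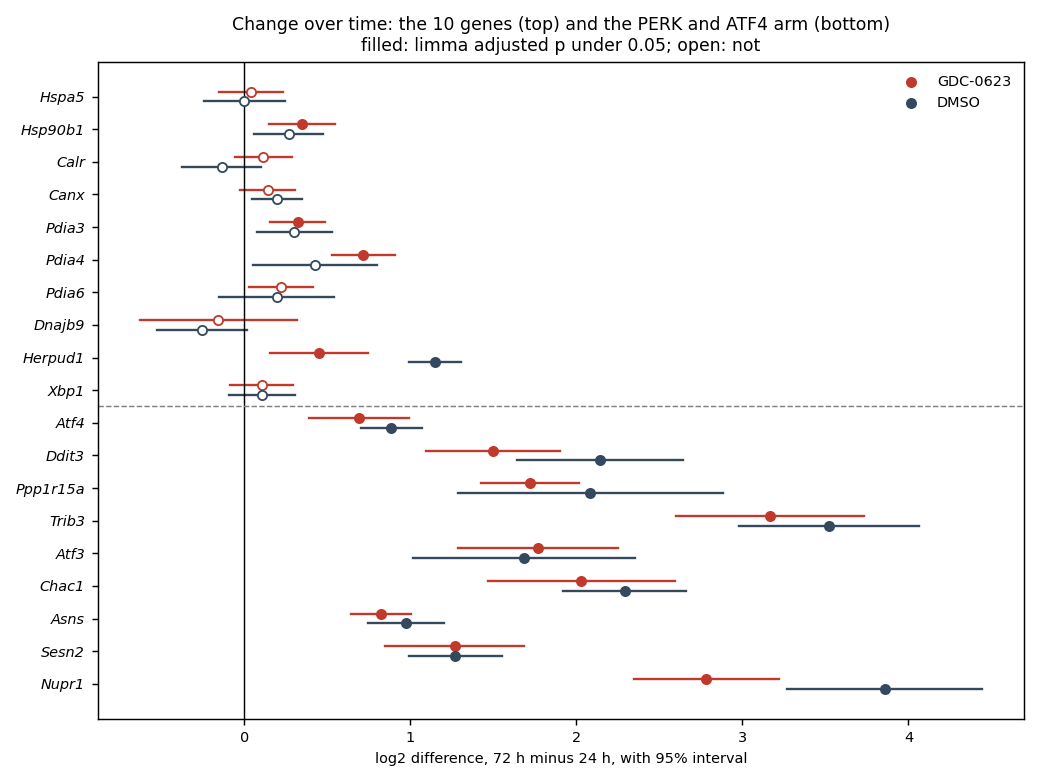
Log2 difference between 72 h and 24 h in GDC-0623 (red) and DMSO (blue) for the 10 genes (above the dashed line) and the 9 genes of the PERK and ATF4 arm (below it), with 95% intervals and filled points for a limma adjusted p under 0.05. All 9 genes of that arm lie right of 0 and are filled, while among the 10 only Herpud1 in DMSO exceeds 1.

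Between drug and solvent that arm gave few calls, 0 to 2 lower at 72 h and 0 to 2 higher and 0 to 3 lower at 24 h over the alternatives. Asns, an amino acid synthesis gene that ATF4 raises, fell by 0.44 ± 0.11 at 72 h (adjusted p = 0.0411) and by 0.29 ± 0.06 at 24 h (adjusted p = 0.0236), and Nupr1 rose at 24 h by 0.67 ± 0.14 (adjusted p = 0.0214). The median of the 9 was -0.39 at 72 h and -0.12 at 24 h. Atf4 differed by -0.37 ± 0.14 at 72 h (adjusted p = 0.169) and -0.18 ± 0.06 at 24 h (adjusted p = 0.127), and Ddit3 by -0.48 ± 0.27 at 72 h (adjusted p = 0.37) and 0.16 ± 0.06 at 24 h (adjusted p = 0.163). The Asns call was lost without any 1 array but DMSO replicate 2 at 72 h (adjusted p up to 0.148) and without any 1 but GDC-0623 replicate 3 at 24 h (up to 0.0923), and the Nupr1 call without GDC-0623 replicate 1 or 2 or DMSO replicate 2 or 3 (up to 0.0873).

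Of the 13 sensors and regulators of the response, 1 rose with GDC-0623 at 72 h and 3 at 24 h, and none fell. Over the alternatives 1 rose and 0 to 2 fell at 72 h, and 1 to 4 rose and 0 to 1 fell at 24 h. Atf6, the sensor whose cleaved form raises chaperone genes, read 9.60, 9.73 and 9.49 with GDC-0623 at 24 h, against 8.83, 9.03 and 8.80 with DMSO. It rose by 0.72 ± 0.09 (1.65-fold, adjusted p = 0.00458), a call kept under each alternative, while at 72 h, with 9.85, 9.61 and 9.75 in GDC-0623 arrays and 9.57, 9.25 and 9.90 in DMSO arrays, the difference was 0.16 ± 0.15 (adjusted p = 0.614). The difference of these 2 effects was -0.56 ± 0.19 and did not pass (adjusted p = 0.149). Creb3, which encodes a membrane-bound relative of ATF6, rose by 0.58 ± 0.10 at 72 h (adjusted p = 0.0079) and 0.43 ± 0.08 at 24 h (adjusted p = 0.0142, and up to 0.0626 without GDC-0623 replicate 1 or 2 or DMSO replicate 1 or 3). Eif2ak3, the gene of PERK, rose at 24 h by 0.27 ± 0.06 (adjusted p = 0.0259, and up to 0.0977 without any 1 array but GDC-0623 replicate 3), with 0.03 ± 0.12 at 72 h. Ern1, the gene of IRE1, differed by 0.04 ± 0.17 at 72 h and 0.14 ± 0.08 at 24 h with no call, and over time fell in GDC-0623 by 0.43 ± 0.08 (adjusted p = 0.00438), with -0.32 ± 0.17 in DMSO (adjusted p = 0.204).

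Over time Nfe2l1, which encodes a proteasome gene activator anchored in the ER, rose by 0.92 ± 0.10 in GDC-0623 and 0.75 ± 0.09 in DMSO, and Atf6 rose in DMSO by 0.69 ± 0.15 (adjusted p = 0.01). Wfs1, which encodes the ER membrane protein wolframin, rose in DMSO by 0.53 ± 0.10 (adjusted p = 0.00473), with 0.36 ± 0.14 in GDC-0623 (adjusted p = 0.0849). Creb3l2, a further membrane-bound relative of ATF6, fell in GDC-0623 by 0.48 ± 0.07 (adjusted p = 0.0012), with -0.25 ± 0.09 in DMSO (adjusted p = 0.0759). In all, 1 of the 13 regulators rose and 3 fell over time in GDC-0623, and 3 rose and 1 fell in DMSO.

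With the drug, the numbers of remaining folding and quality-control genes called at 24 h varied with the fit. Of 18 other ER chaperones and folding enzymes, none was called at 72 h and 1 rose at 24 h, Dnajc3, which encodes an Hspa5 co-chaperone that inhibits PERK (0.34 ± 0.08, adjusted p = 0.0351, and up to 0.118 without any 1 array but GDC-0623 replicate 3). Over the alternatives 0 to 1 of the 18 rose and 0 to 1 fell at 72 h, and 0 to 8 rose at 24 h. Calls over all probe sets also varied with the fit, so this range and those of the lists below stand without their background. The median of the 18 was 0.095 at 72 h and 0.13 at 24 h. Over time 4 rose in GDC-0623 (1 to 6 over the alternatives) and 5 in DMSO (3 to 7) with none falling, among them Ero1a, the oxidase that recharges the disulfide isomerases, by 0.52 ± 0.15 in GDC-0623 (adjusted p = 0.0294, and up to 0.0857 without replicate 1 or 3 of either time) and 1.17 ± 0.23 in DMSO (adjusted p = 0.00608).

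Of the 18 measured genes of ER-associated degradation, 4 rose with GDC-0623 at 72 h (2 to 6 over the alternatives) and 2 at 24 h (0 to 8), with none falling. At 72 h these included both cofactors of the p97 segregase that draws substrates out of the ER membrane, Ufd1 (0.66 ± 0.08, adjusted p = 0.00225) and Nploc4 (0.62 ± 0.11, adjusted p = 0.0087), and Vcp, the gene of p97 itself (0.36 ± 0.08, adjusted p = 0.0322, and up to 0.131 without any 1 array but DMSO replicate 2). The fourth was Derl2, a membrane channel component (0.44 ± 0.10, adjusted p = 0.0254, and up to 0.115 without GDC-0623 replicate 1 or 2 or DMSO replicate 1 or 3). The effect at 72 h exceeded that at 24 h by 0.53 ± 0.11 for Ufd1 (adjusted p = 0.0192, and up to 0.059 without GDC-0623 72 h replicate 2, GDC-0623 24 h replicate 1 or DMSO 24 h replicate 2 or 3) and by 0.68 ± 0.12 for Nploc4 (adjusted p = 0.0111), the opposite sign to Herpud1, and these were the 2 calls of that list in the test of the difference. The 2 genes called at 24 h were Edem2, a mannosidase-like factor (0.35 ± 0.06, adjusted p = 0.0154, and up to 0.0671 without GDC-0623 replicate 1 or 2 or DMSO replicate 2 or 3), and Selenos, a selenoprotein of the retrotranslocation complex (0.22 ± 0.06, adjusted p = 0.0496, and up to 0.151 without any 1 array).

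Of 19 measured genes of ER entry and early transport, none was called at 72 h (0 to 2 higher over the alternatives) and 2 rose at 24 h (0 to 9). These were Kdelr3, a receptor that returns ER residents (0.37 ± 0.07, adjusted p = 0.0203, and up to 0.0775 without GDC-0623 replicate 1 or 2 or DMSO replicate 2 or 3), and Sec24d, a COPII coat subunit (0.34 ± 0.07, adjusted p = 0.0235, and up to 0.0809 without any 1 array but GDC-0623 replicate 3). Over time 3 of the 19 rose and 4 fell in GDC-0623 (2 to 3 and 2 to 7 over the alternatives), and 2 rose and 2 fell in DMSO (1 to 2 and 1 to 4). The joint fit of the 12 arrays lost the 24 h calls of Dnajc3, Selenos, Kdelr3, Sec24d, Eif2ak3, Asns and Nupr1. Kdelr3 led those that rose, by 0.79 ± 0.12 in GDC-0623 and 1.24 ± 0.12 in DMSO. Of 10 N-glycosylation genes none was called with the drug, though up to 2 higher and 1 lower were called at 24 h under the alternatives. Mogs, the first glucosidase of glycan trimming, fell over time by 0.27 ± 0.08 in GDC-0623 (adjusted p = 0.0278, and up to 0.0853 without any 1 array but GDC-0623 72 h replicate 3) and by 0.29 ± 0.09 in DMSO (adjusted p = 0.0383, and up to 0.119 without any 1 array but DMSO 72 h replicate 2). The 9 measured cytosolic heat shock genes gave 1 call with the drug, Hspa1b, an inducible Hsp70, which rose at 72 h by 1.11 ± 0.24 (adjusted p = 0.0204, and up to 0.0653 without GDC-0623 replicate 1 or 2 or DMSO replicate 1 or 3). Over the alternatives 0 to 2 of the 9 rose at 72 h and 0 to 2 fell at 24 h. Over time 4 of those 9 fell in DMSO, led by Hsph1 (-1.25 ± 0.23, adjusted p = 0.00399), and 1 rose and 1 fell in GDC-0623.

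Genes with a profile most like that of Hspa5 over the 12 arrays, by the root mean square difference of centred log2 values among 18192 other genes, were Uso1 (0.046), Ostc (0.047), Snx6 (0.056), Edem1 (0.058) and Bpgm (0.06), where the Hspa5 profile itself has an SD of 0.135. Uso1 encodes a Golgi tether, Ostc a subunit of the oligosaccharyltransferase and Edem1 a mannosidase-like degradation factor. For Xbp1, with an SD of 0.121, the nearest were Prss58 (0.049), Uso1 (0.054), Prokr2 (0.055), Pdyn (0.058) and Alg12 (0.059). Prss58, Prokr2 and Pdyn had group means between 3.21 and 4.88, below the median probe set, so closeness to a nearly flat profile was also reached by dim probe sets.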

How the data were processed

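Each of the 12 RNA samples was hybridised to 1 Affymetrix Mouse430_2 array, and groups were read from the sample titles. For these arrays the authors started from 200 ng of total RNA, a 3' IVT Plus kit and RMA, whose version is not given in the sources used here. RMA subtracts background, equalizes the distributions of the arrays and summarizes the probes of each set, which shrinks small differences. The deposited log2 values, rounded to 2 decimals, were used without a filter or further normalization. The number of arrays limits the precision.

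Of 45101 probe sets, 64 were controls and left out. Among the 45037 tested, 34945 matched a single gene in the annotation, 932 matched more than 1 and 9160 matched none. Every comparison between 2 groups was a limma fit (version 3.58.1, R 4.3.3) of its own 6 arrays, after the study's pairwise design, with two-sided tests and Benjamini-Hochberg adjustment over all probe sets tested. The test of the GDC-0623 effect at 72 h against that at 24 h took all 12 arrays. The workflow was tested on simulated data. Named genes were the 10 members, up to 3 called genes per list and comparison with the largest change, 5 regulators (Ern1, Atf6, Eif2ak3, Atf4, Ddit3), the ERK genes, and the 5 genes nearest in profile to Hspa5 and to Xbp1. The members and gene lists were chosen with earlier results of these data known, and no list was tested as a set. Alternatives were a block for the replicate number, a joint fit of all arrays, centring on array medians, renewed quantile normalization, brighter probe sets, a trended and robust prior, array weights, gene means and the omission of single arrays.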

Additional observations from a re-analysis of the deposited data

Results flagged for a closer look

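Herpud1 was the member whose GDC-0623 effects differed between the times by a test of the difference itself. The effect at 72 h minus that at 24 h was -0.697 for 1448185_at (adjusted p = 0.0311) and -0.67 for 1435626_a_at (adjusted p = 0.0225). At 72 h all 3 GDC-0623 arrays lay below all 3 DMSO arrays for both probe sets. At 24 h 2 of 3 GDC-0623 arrays of 1448185_at and 3 of 3 of 1435626_a_at lay above the DMSO mean. The Dap 3' minus 5' signal also moved with time, and its part in the result was not tested.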

How the results depend on the processing

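Of 760 member gene results under the alternatives, 660 kept their side of the threshold and did not change sign, 37 kept the direction and lost a call, 32 kept the direction and gained one, and 31 changed sign, none of them called in the first place. The 660 include 14 results of Hspa5 over time in DMSO, whose difference was 0 and had no direction to keep (-0.072 to 0.123). At 72 h, GDC-0623 against DMSO gave 3 called member probe sets and 2 genes, a joint fit of the 12 arrays gave 7 and 4, centring on array medians left 1 gene, and omission of single arrays gave 0 to 3 probe sets and 0 to 2 genes. At 24 h 1 probe set and 1 gene were called, 0 and 0 in the joint fit, 3 and 2 among brighter probe sets, 8 and 4 with a trended and robust prior, 2 probe sets with array weights, and 0 to 2 and 0 to 1 without single arrays. Over time in GDC-0623, 12 probe sets and 4 genes became 2 genes after centring, and 8 to 12 and 2 to 4 without single arrays. Over time in DMSO, 7 probe sets and 1 gene became 11 and 5 in the joint fit and with array weights, 4 genes among brighter probe sets and with the trended prior, 2 genes with gene means, and 6 to 13 and 1 to 5 without single arrays. The test of the difference between the GDC-0623 effects kept 0 to 2 probe sets and 0 to 1 gene without single arrays. Over all probe sets, the calls between GDC-0623 and DMSO numbered 3260 at 72 h, 5373 in the joint fit and 1383 to 2716 without single arrays, and 3801 at 24 h, 6403 among brighter probe sets, 6623 with the trended prior, 5890 with array weights and 1133 to 5091 without single arrays. For the difference of effects they numbered 1358, and 668 to 1798 without single arrays. Totals under the alternatives are not given here for the changes over time, so those member counts stand without their background. The cause was not tested.

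Signs turned for uncalled values only. Gene means gave Pdia6 -0.16 over time in GDC-0623 and -0.23 in DMSO, Canx -0.023 over time in GDC-0623 and Hsp90b1 -0.03 in the difference of effects. Centring gave Hspa5 -0.033 over time in GDC-0623. Array weights gave -0.006 for Hspa5, -0.001 for Hsp90b1, -0.018 for Pdia3 and -0.02 for Pdia6 in the difference of effects. Without single arrays the values ran from -0.067 to 0.273 for Pdia6 at 72 h, from -0.035 to 0.095 for Hspa5 and from -0.387 to 0.028 for Dnajb9 over time in GDC-0623, and in the difference of effects from -0.083 to 0.112 for Hspa5, -0.085 to 0.105 for Pdia3, -0.16 to 0.18 for Pdia6, -0.13 to 0.285 for Dnajb9 and -0.078 to 0.052 for Xbp1.

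Replicate numbers stand in the titles with no word on what they mark. Same-numbered GDC-0623 and DMSO arrays of a time had deviations from their group means that correlated at 0.073 to 0.189. Within a time, pairs of unlike number had -0.156 to 0.032, so each array was nearest its own number there. Pairs unlike in number, time and drug reached values as high, from -0.083 to 0.172. The pairing is thus a weak hint from the data and not from the design. With the replicate number as a block, 4 member probe sets were called at 72 h, adding Pdia3 1445330_at (adjusted p = 0.0198), and 10 over time in GDC-0623, where Herpud1 1448185_at (0.0549) and Xbp1 1420012_at (0.0506) no longer passed. The block changed no other member call.

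With 3 arrays a group, many calls on members stood close to the threshold.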
